A study of Mus musculus with 7 samples.

Results

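The transcripts of 8 genes, those of 7 matricellular proteins and of fibronectin, were followed across the cells of irradiated and control malignant peripheral nerve sheath tumors (MPNSTs): Postn, Tnc, Thbs2, Fn1, Thbs1, Sparc, Ccn1 and Ccn2. They were taken by symbol from the feature list, which held each of the 8 once among 33696 genes. Counts are unique molecular identifiers (UMIs, 1 per captured transcript), and levels (CPM) are a gene's UMIs per 1000000 UMIs of the same cells. The tumors were subcutaneous allografts of JW23.3, a mouse MPNST line with mutant Nf1 and Trp53, in female C57/B6 mice that were 5 to 6 weeks old, implanted on day 0 and randomized on day 7. The irradiated group held 4 tumors given 5 daily fractions of 2 Gy (RT), and the control group held 3 tumors without RT. Harvest was on day 21 in both groups, and cells were profiled with a 3′ droplet assay, 1 library per tumor. Because every tumor came from the same line in the same mouse strain, the groups shared all alleles and differed in RT alone as far as the labels state.

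Matricellular proteins are secreted into the extracellular matrix and act there on cell adhesion, growth factor release and matrix assembly rather than as the main load-bearing scaffold. They are typically scarce in resting adult tissue and rise in wounds, nerve injury, fibrosis and tumor stroma. Periostin (Postn) and tenascin-C (Tnc) are matrix glycoproteins of healing tissue that bind integrins, and periostin also binds tenascin-C. The thrombospondins bind CD36 and CD47, and thrombospondin-1 (Thbs1) also activates latent TGF-β, whereas thrombospondin-2 (Thbs2) lacks that activity. Fibronectin (Fn1) is a structural glycoprotein rather than a matricellular protein in the strict sense, and it is the scaffold on which many of the others assemble. Osteonectin (Sparc) binds collagen and is abundant in vessel walls, and CYR61 (Ccn1) and CTGF (Ccn2) are CCN family proteins whose genes are classic targets of the YAP and TAZ coactivators.

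Cells were assigned to 5 classes by counting detected markers of each class, with none of the 8 genes among the markers. Of 39537 cells, 34300 were retained, and the gates held 14437 tumor cells, 308 fibroblasts, 191 pericytes, 478 endothelial cells and 11297 macrophages. A further gate of 1139 T and NK cells served as the class that should lack all 8 transcripts, and their level there was used as a stand-in for free RNA. Median depth was 22488 UMIs in tumor cells, 10260.5 in fibroblasts, 7313 in pericytes, 5826 in endothelial cells, 6576 in macrophages and 3533 in T and NK cells. The libraries held 53496570 to 153044123 UMIs, and 190 barcodes occurred in more than 1 library. The labels named no batch. By cell number and depth the libraries fell into a first technical set (irradiated 1, controls 2 and 3) and a second (irradiated 2, 3 and 4, control 1). Median depth of retained cells was 6863 to 10779.5 UMIs in the first set and 11987.5 to 21501 in the second. Control 1, with 6134 cells, lay between the rest of the second set (2859 to 3780) and the first set (7291 to 8452). Irradiated 1 was the only irradiated tumor of the first set, and control 1 the only control of the second. The name technical set stands for this split alone. Whether the split arose in handling, from RT or from the tumors themselves was not tested. Differences between irradiated and control tumors within each set are given beside the larger estimates and those that changed sign. Summed levels of the class's own 12 markers ran from 5099 to 6307 CPM in tumor cells, 3429 to 6765 in fibroblasts, 11501 to 14549 in pericytes, 6855 to 8569 in endothelial cells and 16807 to 19713 in macrophages. Because the gates counted these same markers, the sums do not test the labels. Tumor markers summed to 880 to 1610.3 CPM in fibroblasts and to 736 to 1469 CPM in pericytes, against 50.9 to 377 CPM in endothelial cells and 34.1 to 102 CPM in macrophages. In fibroblasts 8 to 10 of the 12 tumor markers had a UMI, and only Sox10 was at 0 in every tumor. Fibroblast markers summed to 1374 to 1997 CPM in tumor cells and to 900 to 1524 CPM in endothelial cells. Fibroblasts numbered only 22 to 92 and endothelial cells 20 to 154 per tumor, and irradiated 4, with 12 pericytes, was left out of every pericyte value.

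In the GRCm38.p6 assembly, per RefSeq, Postn spans chr3:54359267-54391041, Tnc chr4:63959785-64047015, Thbs2 chr17:14665500-14694262 and Fn1 chr1:71585473-71653280. Thbs1 spans chr2:118111876-118127133, Sparc chr11:55394159-55420080, Ccn1 chr3:145646971-145649985 and Ccn2 chr10:24595442-24598683. Postn with Thbs2, and Sparc with Ccn1, followed each other across cell classes in the data described further on, so the promoters of these 4 genes are shown to compare the pairs, from 250 bases before to 50 bases after the RefSeq start (GRCm38.p6; Postn on the plus strand at chr3:54359017-54359316, and on the minus strand Thbs2 at chr17:14694213-14694512, Sparc at chr11:55420031-55420330 and Ccn1 at chr3:145649936-145650235).
Postn: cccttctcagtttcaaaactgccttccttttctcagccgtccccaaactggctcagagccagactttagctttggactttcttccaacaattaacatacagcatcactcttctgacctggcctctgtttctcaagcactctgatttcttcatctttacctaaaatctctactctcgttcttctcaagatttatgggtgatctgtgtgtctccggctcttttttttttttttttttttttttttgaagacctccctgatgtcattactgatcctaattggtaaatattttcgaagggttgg
Thbs2: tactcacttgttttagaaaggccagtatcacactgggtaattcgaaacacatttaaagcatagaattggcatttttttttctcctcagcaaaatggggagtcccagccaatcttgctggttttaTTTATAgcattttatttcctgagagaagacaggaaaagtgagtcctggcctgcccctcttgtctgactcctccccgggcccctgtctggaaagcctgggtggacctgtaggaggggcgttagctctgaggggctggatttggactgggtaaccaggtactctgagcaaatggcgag
Sparc: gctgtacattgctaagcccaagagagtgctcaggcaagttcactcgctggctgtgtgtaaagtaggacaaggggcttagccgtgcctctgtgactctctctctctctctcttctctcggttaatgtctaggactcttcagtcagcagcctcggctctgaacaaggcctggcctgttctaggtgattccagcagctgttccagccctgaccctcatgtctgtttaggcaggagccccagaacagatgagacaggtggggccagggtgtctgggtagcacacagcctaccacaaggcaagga
Ccn1: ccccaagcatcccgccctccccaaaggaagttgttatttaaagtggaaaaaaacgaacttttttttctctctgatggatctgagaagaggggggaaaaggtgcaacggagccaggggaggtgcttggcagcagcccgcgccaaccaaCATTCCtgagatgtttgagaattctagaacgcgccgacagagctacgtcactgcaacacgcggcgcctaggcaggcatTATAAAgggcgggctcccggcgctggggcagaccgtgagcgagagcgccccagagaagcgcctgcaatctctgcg
Capitals mark matches, on either strand, to the TEAD motif GGAATG, the AP-1 motif TGANTCA, the CArG box bound by SRF, or the TATA motif TATAAA. None of these motifs overlapped another here. Ccn1 held a TEAD match that began 103 bases before the start and a TATA match 25 bases before it, and Thbs2 held a TATA match 126 bases before its start. Of the 32544 mouse promoter windows of this length, 14.6% held the TEAD motif, 7.79% the AP-1 motif, 1.64% a CArG box and 13.6% the TATA motif. Postn and Sparc had none of these letter strings in the window.

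The first question was which cells of the tumor carried each transcript. Fibroblasts had the highest median level of 7 of the 8 genes, and 7 of 8 (all but Ccn1) were higher in fibroblasts than in tumor cells by edgeR's quasi-likelihood test at an adjusted p under 0.05 over all genes, where 27.3% of the 10544 genes tested were higher. In pericytes 2 of the 8 were higher than in tumor cells and 2 lower, against 22.7% and 28.6% of all genes, and in endothelial cells 2 were higher and 4 lower, against 27.8% and 36.7%. In macrophages 1 was higher and 6 were lower, against 36.6% and 45.4%. Relative to fibroblasts, 6 of the 8 were lower in pericytes, 6 in endothelial cells and 7 in macrophages and none was higher, where 20.3%, 29.7% and 38.9% of all genes were lower. Relative to pericytes, 4 were lower in endothelial cells (20.4% of all genes), and 1 was higher and 6 were lower in macrophages (31.3% and 31.2%). Between macrophages and endothelial cells, 2 were higher in macrophages and 4 lower (33.5% and 32%). Of those higher, Thbs1 (0.68, edgeR adjusted p = 0.0497) lay near the threshold, and its adjusted p rose to as much as 0.1425 under the alternatives. The median difference from tumor cells over the 8 genes was 1.41 in fibroblasts and −6.23 in macrophages on the log2 scale, and over all genes it was −0.04 and −0.15. Tumor cells nonetheless held most UMIs of every gene except Thbs1, and they were the most numerous and deepest cells. Macrophages exceeded T and NK cells in Thbs1 and Fn1, and for the other 6 genes not detectably. By gate, endothelial cells exceeded T and NK cells in Sparc, Ccn1, Ccn2, Thbs1, Fn1 and Tnc, and not detectably in Postn and Thbs2.

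**Figure D1:**
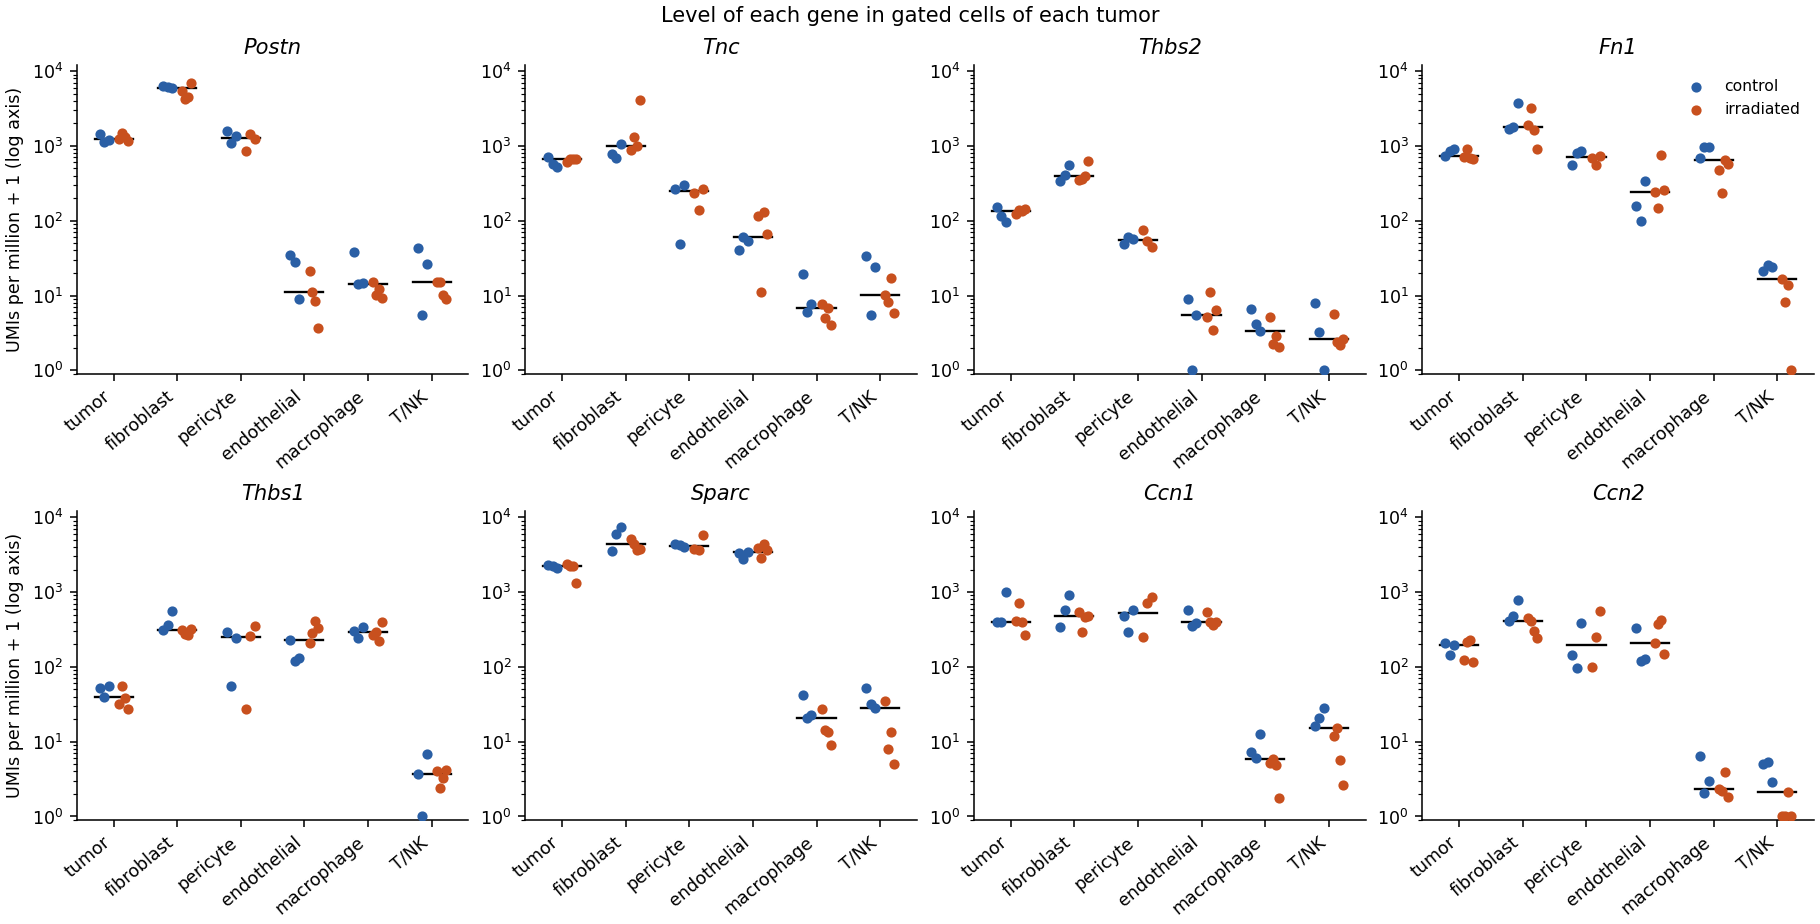
Level of each gene (CPM plus 1, log axis) in the gated cells of each tumor by class; each point is 1 tumor, blue for control and orange for irradiated, and the black line is the median over tumors. Fibroblasts sit highest for Postn, Tnc, Thbs2 and Fn1, macrophages match fibroblasts for Thbs1, and macrophages lie near T/NK cells for Postn, Sparc, Thbs2 and Ccn2.

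Periostin was highest in fibroblasts. In fibroblasts its level was 5485, 4171, 4536 and 6943 CPM in irradiated tumors 1 to 4 and 6299, 6051 and 5876 CPM in controls 1 to 3. In tumor cells it was 1220.4, 1470.2, 1319.6 and 1160.05 CPM in irradiated tumors and 1445, 1113 and 1192 CPM in controls. Every fibroblast value lay above every tumor cell value. The difference was 2.16 on the log2 scale (SE 0.22, edgeR adjusted p = 6.04e-10). Pericytes, the contractile cells that wrap capillaries, held 859, 1434 and 1229 CPM in irradiated tumors 1 to 3 and 1600.04, 1098 and 1344 CPM in controls, close to tumor cells (difference −0.09, SE 0.23, adjusted p = 0.774). Endothelial cells (2.70 to 33.5 CPM) and macrophages (8.20 to 37.0 CPM) were far lower, at differences of −6.42 (SE 0.30) and −6.27 (SE 0.27) from tumor cells. The endothelial and macrophage levels overlapped the 4.41 to 42.3 CPM of T and NK cells. The endothelial value depended on how the cells were taken. The endothelial cluster, of 627 cells, had a median of 316 CPM of Postn (7.46 to 484), and with cells taken by cluster the difference from tumor cells was −2.38 (adjusted p = 3.27e-05) and that of macrophages from endothelial cells was −3.35 (adjusted p = 2.5e-07), against 0.16 by gate.

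Tnc and Thbs2 were also highest in fibroblasts, and for both of them pericytes lay below tumor cells. Tnc, a large hexameric glycoprotein of injured nerve and tumor stroma, had a median of 997 CPM in fibroblasts (692 to 4076), 668 CPM in tumor cells (527 to 699) and 247 CPM in pericytes (48.3 to 297). Fibroblasts exceeded tumor cells by 1.02 (SE 0.37, adjusted p = 0.0190), which rested on irradiated 4: without that tumor the difference was 0.63 (adjusted p = 0.0912). It also missed the threshold with cells taken by cluster (0.80, adjusted p = 0.101) and under stricter gates (0.83, adjusted p = 0.187). Pericytes lay below tumor cells by a difference of −1.60 (SE 0.41, adjusted p = 0.00202), and endothelial cells by −3.31 (SE 0.42). With cells taken by cluster these were −0.93 (adjusted p = 0.0822) and −2.22. Within fibroblasts Tnc was also uneven between cells of different tumors, with 41.3% to 95.5% of cells holding a UMI, or 24.1% to 83.3% at an equal depth of 2000 UMIs per cell. Thbs2, an inhibitor of vessel growth, had a median of 390.5 CPM in fibroblasts (338 to 623), 134 CPM in tumor cells (96.0 to 150.1) and 53.7 CPM in pericytes (43.4 to 74.5). Its fibroblast level was 1.78 above tumor cells (SE 0.21, adjusted p = 2.07e-08) and its pericyte level was −1.22 from them (SE 0.29, adjusted p = 0.000766). The 3 classes did not overlap for Thbs2. Endothelial cells held only 16 Thbs2 UMIs in all, but the endothelial cluster had a median of 17.5 CPM, and its difference from tumor cells was −2.97 rather than −5.08, and macrophages had 1.05 to 5.59 CPM against up to 6.82 CPM in T and NK cells.

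Fibronectin was shared by more classes than any other of these genes except Thbs1. Its level in fibroblasts was 1910.4, 3238, 1607 and 901 CPM in irradiated tumors and 1693, 1802 and 3692 CPM in controls. Tumor cells had 714, 905, 698 and 664 CPM in irradiated tumors and 739, 845 and 919 CPM in controls. The tumor cell values of irradiated 2 and control 3 lay just above the lowest fibroblast value, that of irradiated 4, and all others lay below it. Fibroblasts exceeded tumor cells by 1.41 (SE 0.31, adjusted p = 0.000286). Pericytes (549 to 841 CPM) differed from tumor cells by −0.28 (SE 0.33, adjusted p = 0.502). Macrophages (232 to 972 CPM) differed from them by −0.05 (SE 0.30, adjusted p = 0.892). Endothelial cells were lowest, with 97.1 to 755 CPM and a difference of −1.66 from tumor cells (SE 0.33, adjusted p = 5.82e-05).

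Thbs1 was lowest in tumor cells. Tumor cells held 30.4, 54.9, 37.3 and 26.7 CPM in irradiated tumors and 50.6, 38.5 and 54.4 CPM in controls. Macrophages held 265, 289.7, 222 and 395 CPM in irradiated tumors and 299, 246 and 345 CPM in controls. No macrophage value came near a tumor cell value, and the difference was 3.09 (SE 0.31, adjusted p = 3.79e-10). Fibroblasts (266 to 564 CPM) were 3.08 above tumor cells (SE 0.32, adjusted p = 2.92e-09) and did not differ detectably from macrophages (−0.0049, SE 0.30, adjusted p = 0.990). Pericytes (25.9 to 347 CPM) and endothelial cells (120.4 to 415 CPM) were 2.20 (SE 0.34) and 2.40 (SE 0.32) above tumor cells. Pericytes in irradiated 1 and control 2 had only 25.9 and 54.3 CPM, both below the highest tumor cell value, 54.9 CPM. Under stricter gates pericytes were 1.52 above tumor cells (adjusted p = 0.0415). Macrophages were 0.89 above pericytes (adjusted p = 0.0258), which was lost without control 2 (0.76, adjusted p = 0.0698) or irradiated 1 (0.68, adjusted p = 0.0767). Thrombospondin-1 is stored in platelets and made by monocytes and vessel cells, and T and NK cells here held 0 to 5.79 CPM of its transcript.

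Sparc and the CCN genes had another pattern, spread over tumor, stromal and vascular cells and low in immune cells. Sparc had a median of 4452 CPM in fibroblasts (3588 to 7476), 4177 CPM in pericytes (3639 to 5754), 3416 CPM in endothelial cells (2799 to 4351) and 2236 CPM in tumor cells (1335 to 2337). Fibroblasts, pericytes and endothelial cells each exceeded tumor cells, by 1.24 (SE 0.22), 0.95 (SE 0.22) and 0.65 (SE 0.21), with adjusted p = 1.17e-05, 0.000641 and 0.00937. Neighbors among these 3 did not pass the test (0.29, SE 0.23, and 0.30, SE 0.23), whereas endothelial cells were below fibroblasts by a difference of −0.59 (SE 0.22, adjusted p = 0.0192). Under stricter gates, which kept 1 irradiated and 2 control pericyte libraries, the pericyte excess was 0.54 (adjusted p = 0.172). Ccn1, an immediate early matrix signal, was level across the 4 nonimmune classes, with medians of 519 CPM in pericytes, 474 CPM in fibroblasts, 397 CPM in tumor cells and 395 CPM in endothelial cells. No pair among those neighbors passed the test (adjusted p from 0.550 to 0.818), and the range within 1 class, 263 to 1008 CPM in tumor cells, was wider than the range of class medians. Ccn2, which binds TGF-β and drives fibrosis programs, was higher in fibroblasts (median 411 CPM, 244 to 788) than in tumor cells (193 CPM, 116 to 230) by 1.42 (SE 0.29, adjusted p = 0.000160). Its medians of 206 CPM in endothelial cells and 198 CPM in pericytes were 0.31 (SE 0.30, adjusted p = 0.374) and 0.34 (SE 0.33, adjusted p = 0.408) above tumor cells. Macrophages were far below tumor cells for all 3 genes, with differences of −6.50 for Sparc, −6.40 for Ccn1 and −6.20 for Ccn2.

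The level in T and NK cells of the same tumor, which share the droplets' soup with the other classes, was taken as a stand-in for free RNA. It is not a direct measure of free RNA. The T and NK gate limited markers of tumor cells and fibroblasts, so cells with more of these markers were left out of it. The T and NK cell cluster, formed without such limits, had medians of 166 CPM of Postn (62.4 to 398), 236 of Sparc, 133 of Fn1 and 96.0 of Tnc. By gate these medians were 14.0, 27.0, 15.5 and 9.31 CPM. Macrophages exceeded T and NK cells in 7 of 7 tumors for Thbs1 (mean difference 5.84 on the log2 scale, SD 0.42) and Fn1 (5.39, SD 1.08). In the two-sided exact sign-flip permutation test over tumors both gave the smallest p that 7 tumors allow, 0.0156, with an adjusted p of 0.0278 over 16 tests. For Postn, Sparc, Thbs2 and Ccn2 macrophages were above T and NK cells in 4, 2, 3 and 6 of 7 tumors, with mean differences of −0.01 (SD 0.62), −0.02 (SD 0.52), 0.12 (SD 0.39) and 0.20 (SD 0.53) and exact permutation adjusted p of 1, 1, 0.673 and 0.458. Because macrophages and T and NK cells differed in depth, equal CPM does not settle how much of these UMIs was free RNA, which was not tested. Ccn1 was lower in macrophages than in T and NK cells in 7 of 7 tumors (−0.88, SD 0.48, exact permutation p = 0.0156, adjusted 0.0278), and Tnc in 6 of 7 (−0.64, SD 0.53, adjusted p = 0.05 in the exact permutation test, which is not below the threshold). Endothelial cells exceeded T and NK cells in 7 of 7 tumors for Sparc, Ccn2, Thbs1, Ccn1, Fn1 and Tnc, by mean differences of 7.33, 5.79, 5.48, 4.97, 4.04 and 2.02, each at an exact permutation adjusted p of 0.0278. For Postn (−0.11, SD 1.13) and Thbs2 (0.51, SD 0.88) they did not, at exact permutation adjusted p = 0.929 and 0.25. With cells taken by cluster, Tnc overlapped between endothelial cells (median 131 CPM, 30.7 to 306) and T and NK cells (96.0 CPM, 53.5 to 184).

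The share of cells with a UMI was also read at an equal depth. At 2000 UMIs per cell, Postn was found in a median of 72.1% of tumor cells, 93.3% of fibroblasts, 66.0% of pericytes, 3.75% of endothelial cells, 3.05% of macrophages and 2.05% of T and NK cells. Without thinning those medians were 91.9%, 100%, 80.0%, 8.54%, 8.30% and 4.79%. Thinned Fn1 was found in 46.5% of macrophages and 2.47% of T and NK cells, and thinned Thbs1 in 27.0% and 0.592%. Thinned Sparc was found in 93.1% of endothelial cells and 4.02% of macrophages, against 4.59% of T and NK cells. Thinning left out 300 tumor cells, 11 fibroblasts, 9 pericytes, 76 endothelial cells, 1020 macrophages and 166 T and NK cells that were shallower than 2000 UMIs, and 1 tumor fell below 20 endothelial cells.

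Level per RNA and contribution to the tumor's pool differed, because classes differed in number and depth. Of all Postn UMIs in retained cells, tumor cells held a median of 79.9% (65.1% to 85.4%) and fibroblasts 3.11% (1.28% to 7.34%), although the fibroblast level was higher. Tumor cells held similar medians of Tnc (82.8%), Thbs2 (80.9%), Ccn1 (81.1%), Ccn2 (80.9%) and Sparc (77.5%). Endothelial cells held 1.29% of Sparc UMIs. Fn1 was split between tumor cells at 68.9% (52.7% to 77.8%) and macrophages at 14.7% (7.33% to 33.5%). Macrophages were the largest single source of Thbs1 UMIs, at 46.3% (35.6% to 79.1%), with tumor cells at 31.7% (7.33% to 36.5%). In irradiated 4, where macrophages made up 50.2% of cells, they held 79.1% of Thbs1 and 33.5% of Fn1 UMIs. In control 1, where they made up 22.0% of cells, they held 35.6% and 9.65%. Cells outside every gate held a median of 13.9% to 16.1% of each gene's UMIs. Their highest share in any tumor ran from 30.3% for Thbs1 to 42.5% for Ccn2. These shares describe dissociated cells that entered droplets.

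**Figure D2:**
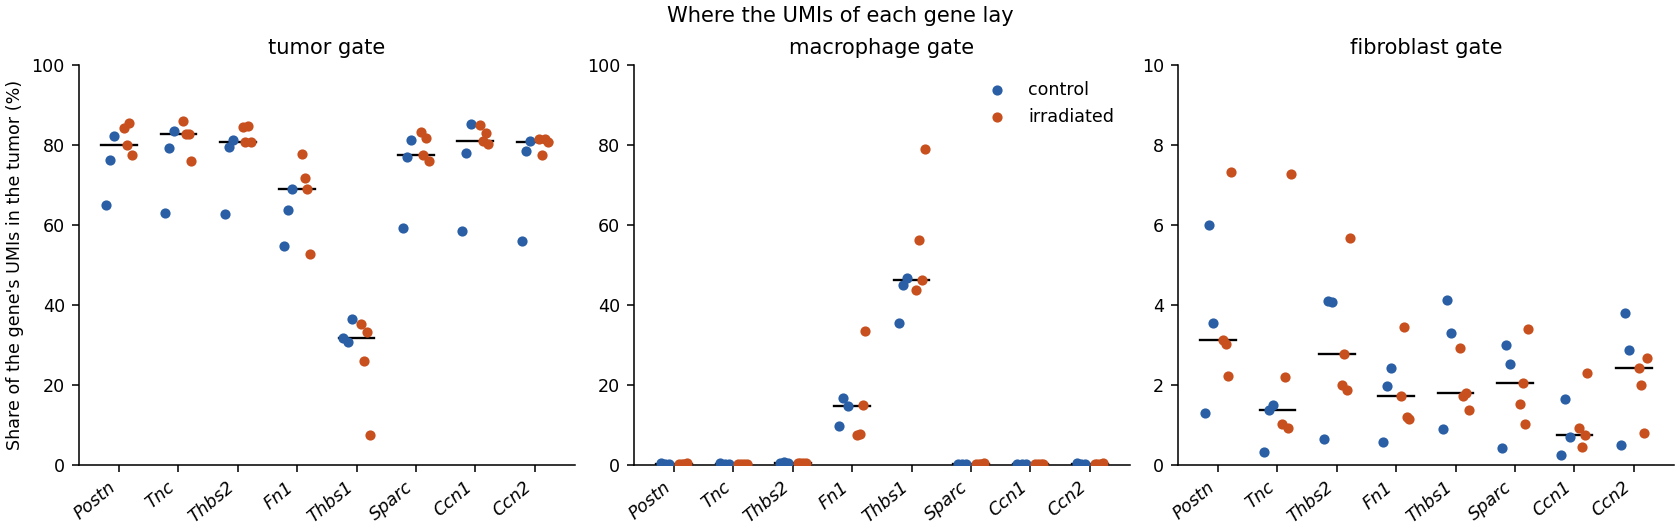
Share of each gene's UMIs that lay in tumor cells, macrophages and fibroblasts of each tumor (percent of the UMIs of retained cells; the fibroblast axis ends at 10%); points are tumors, blue for control and orange for irradiated, and lines are medians. Tumor cells hold 65% or more of Postn in every tumor, whereas macrophages hold more Thbs1 than tumor cells do in all 7 tumors.

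Tumor cells were not uniform in these genes. Clusters were formed without the 8 genes or the gene lists, and their levels are given as a description with no test. The 7 tumor cell clusters ranged in Postn from a median of 376 CPM (342 to 509 over 7 tumors) in a cluster led by the histone gene H2ac24 with Depdc1a and Cenpe, which are mitotic genes, to 2148 CPM (1899 to 2394) in a cluster led by C1qtnf7, the elastin gene Eln and Cilp2. The order of these 2 clusters was the same in 7 of 7 tumors. The mitotic cluster was also lowest for Fn1 (479 CPM), Thbs1 (21.7 CPM), Thbs2 (49.1 CPM) and Ccn1 (341 CPM). Its cells were the deepest, with a median of 41362 UMIs, against 17297 to 26646.5 in the other tumor cell clusters. A lower CPM there therefore need not mean fewer UMIs of the gene per cell. The C1qtnf7 cluster was highest for Thbs1 (73.9 CPM), Ccn1 (588 CPM) and Ccn2 (379 CPM). Sparc was highest at 4684 CPM (3545 to 5800.4 over 6 tumors) in a cluster led by the cartilage gene Cnmd with Rerg and Alpl, which was also highest for Thbs2 (248 CPM) and lowest for Tnc (492 CPM). Fn1 was highest at 1385 CPM (1228 to 1845) in a cluster led by the cartilage collagen gene Col2a1. A cluster led by Mdk, the midkine gene, was lowest for Sparc (1168 CPM) and Ccn2 (69.0 CPM). Tnc was highest at 830 CPM in a cluster led by F830016B08Rik with the interferon-induced genes Ifit1 and Gbp6. Tnc and Ccn1 differed least between tumor cell clusters, 1.69-fold and 1.72-fold from the lowest to the highest cluster median, against 5.71-fold for Postn.

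**Figure D3:**
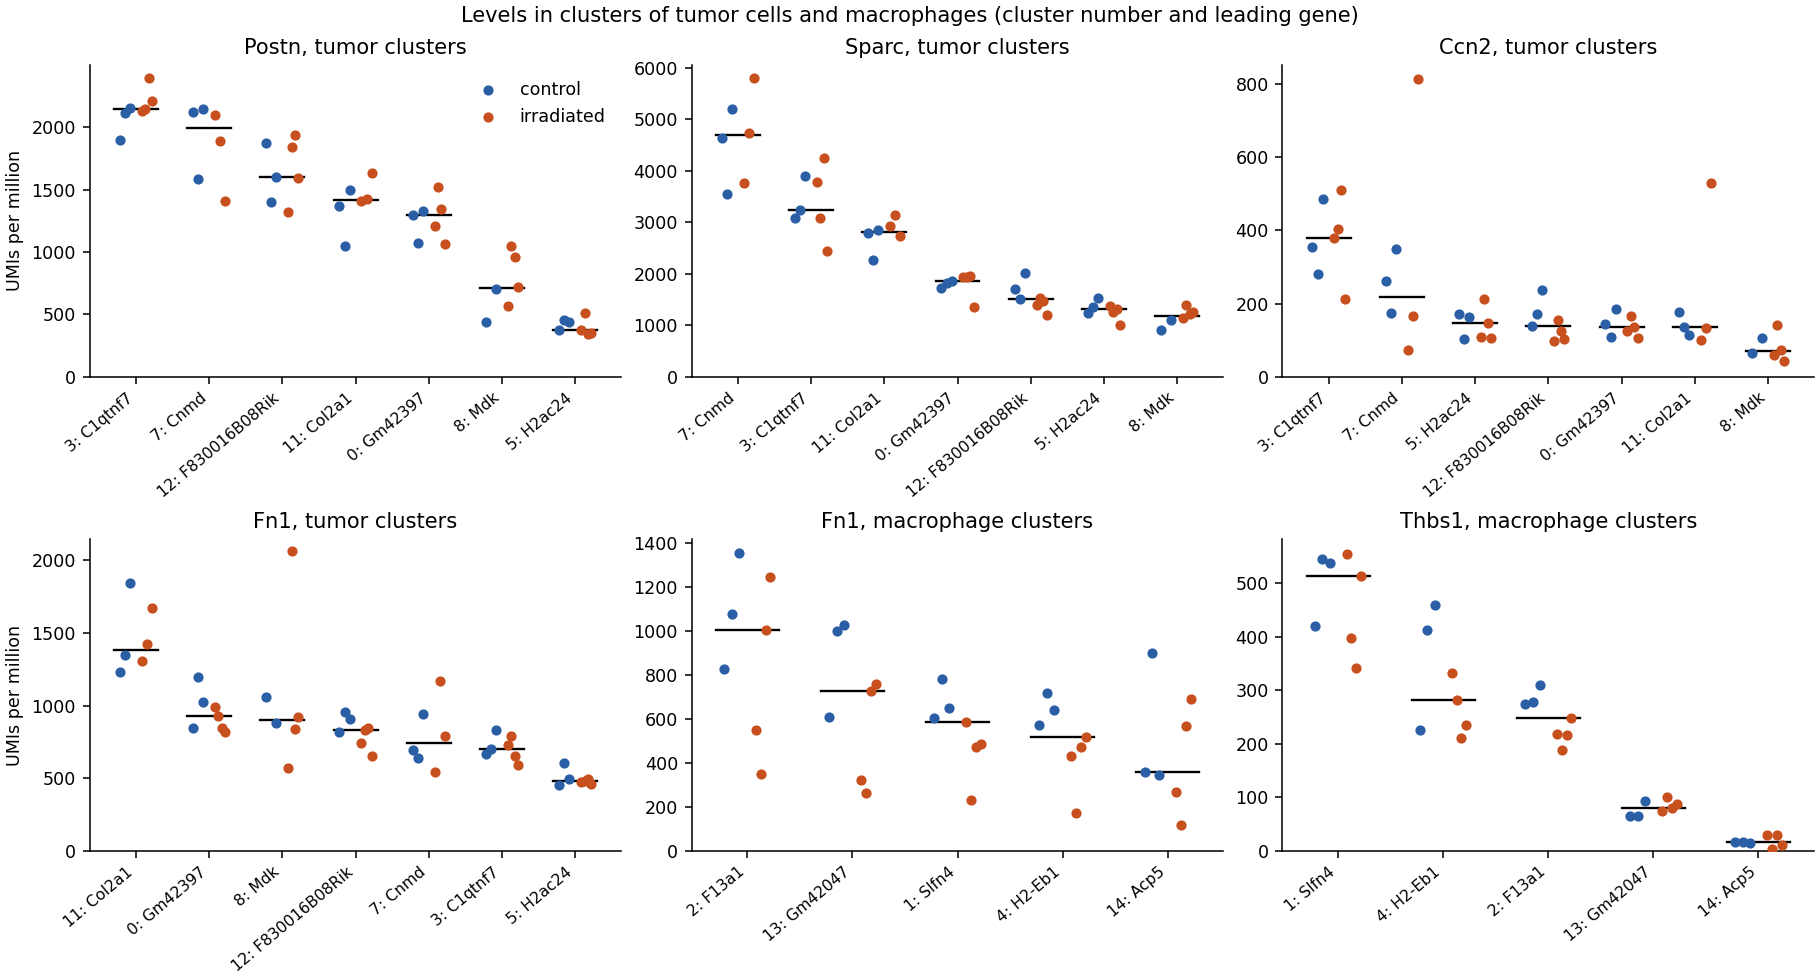
Levels (CPM, linear axis from 0) in clusters of tumor cells and macrophages, each named by its number and leading gene and ordered by median; points are tumors with at least 20 cells of the cluster, blue for control and orange for irradiated, and lines are medians. Postn falls from 2148 to 376 CPM across tumor cell clusters, and Thbs1 falls from 513 to 16.4 CPM across macrophage clusters.

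Macrophages differed from one another mainly in Thbs1. Its median was 513 CPM (342 to 555 over 7 tumors) in a cluster led by Slfn4, Chil3 and Ms4a4c, genes of recruited monocytes, and 282 CPM (211 to 459) in a cluster led by the MHC class II genes H2-Eb1 and H2-Aa. It was 248 CPM (188 to 310) in a cluster led by F13a1, Gdf15 and Ccl8. In a cluster led by Acp5, Atp6v0d2 and Ctsk, genes of osteoclasts and related multinucleate cells, it was 16.4 CPM (3.63 to 29.2), which was 31.4-fold below the first and lower in 7 of 7 tumors. Fn1 was ordered differently, with its highest median, 1006 CPM (349 to 1356), in the F13a1 cluster, 588 CPM in the Slfn4 cluster and its lowest, 361 CPM, in the Acp5 cluster. The other 6 genes stayed between 0.841 and 66.1 CPM in median in every macrophage cluster. The highest of these was Sparc in the Acp5 cluster, at 66.1 CPM (0 to 163). That median lay above the highest gated T and NK cell library, at 51.9 CPM, but below the median of the T and NK cell cluster, 236 CPM (77.6 to 587).

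Across the 34 sums of 1 class in 1 tumor, the genes fell into the same groups by Pearson correlation of log2 CPM, given as a description because sums of 1 library share depth and free RNA. Postn went with Thbs2 (r = 0.92) and Tnc (r = 0.86), and Sparc with Ccn1 (r = 0.97) and Ccn2 (r = 0.97). Thbs1 was negative with Postn (r = −0.25) and Ccn1 (r = −0.32). Among all genes, the 3 most like Postn were Col3a1 (r = 0.99), Gpc6 (r = 0.98) and Col6a3 (r = 0.97), and those most like Thbs2 were Col3a1 (r = 0.95), Arhgef40 (r = 0.93) and Meis2 (r = 0.93). Tnc was nearest to Ccn4 (r = 0.96), Cped1 (r = 0.95) and Dnm3os (r = 0.95). Sparc was nearest to Nid1, Rhoj and Npdc1 (r = 0.99 each), Ccn1 to Nedd4 (r = 0.98), Fkbp9 (r = 0.98) and Npdc1 (r = 0.97), and Ccn2 to Sparc (r = 0.97), Nectin3 (r = 0.96) and Npdc1 (r = 0.96). Thbs1 and Fn1 had looser partners, with r = 0.89, 0.87 and 0.86 for Gas6, Phyhd1 and Lrmda and r = 0.84, 0.83 and 0.82 for Nupr1, Parp8 and Runx1.

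The second question was whether RT changed these genes within a class. None of the 8 passed the test in tumor cells, fibroblasts, pericytes, endothelial cells or macrophages, and neither did any other gene (edgeR, 0 called, or 0%, of 17320, 6287, 5132, 7247 and 12643 genes tested). At an unadjusted p under 0.05 there were 207, 216, 117, 262 and 660 genes in those classes, and DESeq2 called 2 genes in endothelial cells and 5 in macrophages, none of them among the 8. No class differed detectably from tumor cells in the RT effect on any of the 8 genes (edgeR interaction, 0% of 10544 genes called in each of 4 tests). In simulated data, the test within a class recovered 39% of genes changed by 1 on the log2 scale in tumor cells and 0% in fibroblasts. It recovered 5% in pericytes, 24.5% in endothelial cells and 62.5% in macrophages, so changes of that size could be missed. Thbs2 was too low to be tested in endothelial cells. The median difference over the genes tested among the 8 was −0.18 in tumor cells, −0.39 in fibroblasts, 0.04 in pericytes, 0.58 in endothelial cells and −0.89 in macrophages, against −0.02, 0.02, 0.01, 0.01 and −0.01 over all genes.

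**Figure D4:**
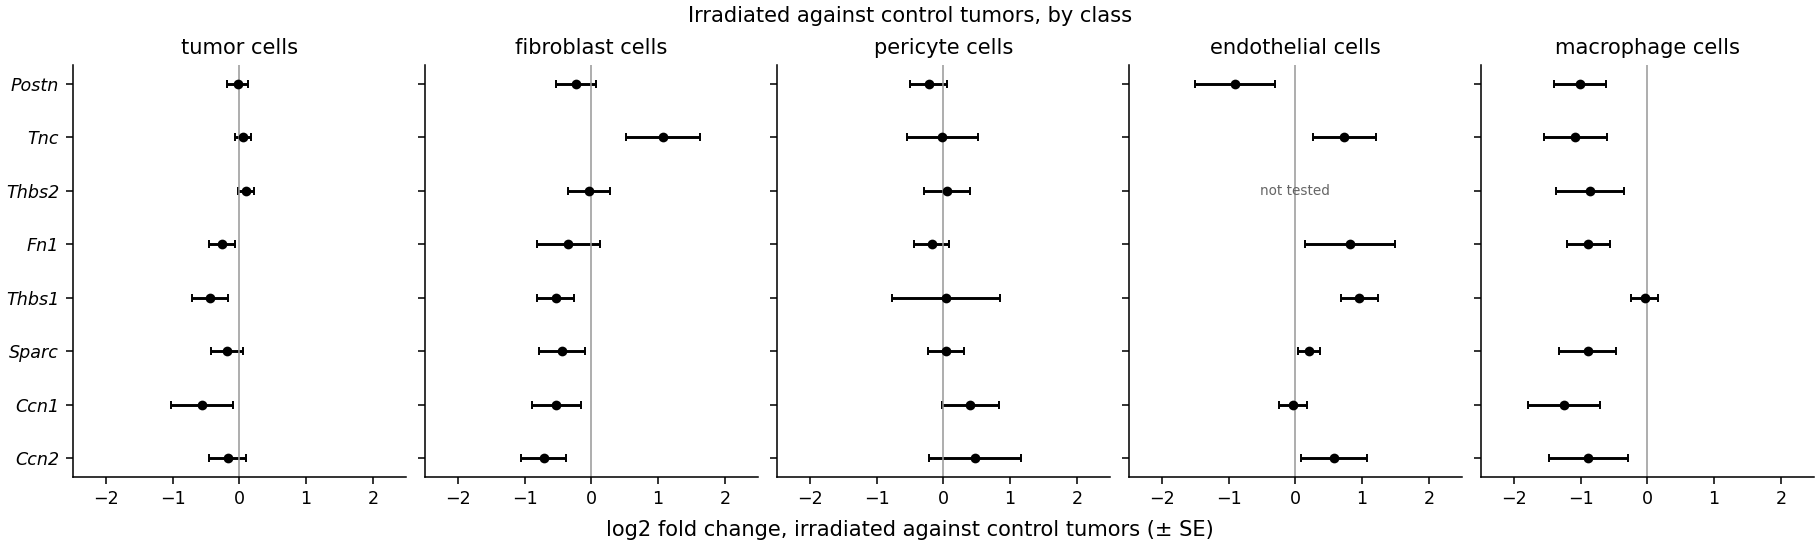
The log2 fold change of each gene between irradiated and control tumors (point) with its SE (bar) in each class from the edgeR fit; 0 means no difference. The largest estimates are in macrophages (down to −1.25), fibroblasts (Tnc 1.07) and endothelial cells (Thbs1 0.96), and no gene passed the adjusted threshold.

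In tumor cells the estimates were small. Postn differed by −0.03 (SE 0.16), Tnc by 0.05 (SE 0.12), Thbs2 by 0.10 (SE 0.11), Sparc by −0.18 (SE 0.24), Fn1 by −0.26 (SE 0.20), Ccn2 by −0.18 (SE 0.28) and Thbs1 by −0.45 (SE 0.27), all at an edgeR adjusted p of 0.9995. Ccn1 had the largest estimate, −0.56 (SE 0.47), with 407, 710, 397 and 263 CPM in irradiated tumors and 394, 397 and 1008 CPM in controls. Its 2 highest tumors, control 3 and irradiated 2, also had the 2 highest sums of the 20 immediate early and dissociation stress genes in tumor cells (9024 and 8845 CPM), and its lowest, irradiated 4, had the lowest sum (1926 CPM). Without control 3 the Ccn1 difference was 0.17, and the difference of mean log2 CPM was −0.64 within the first technical set and 0.09 within the second. The part of the stress genes in the Ccn1 values was not tested. Within the first and second technical sets, Postn was at 0.0831 and −0.14 in mean log2 CPM and Tnc at 0.15 and −0.0544. Thbs2 was at 0.24 and −0.12, Sparc at 0.11 and −0.27 and Fn1 at −0.30 and 0.0185, so that all of these also changed sign.

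In fibroblasts Tnc had the largest estimate, 1.07 (SE 0.55, edgeR adjusted p = 0.919). Its level was 874, 1318, 997 and 4076 CPM in irradiated tumors and 768, 692 and 1069.8 CPM in controls. The groups overlapped, and without irradiated 4, which had 25 fibroblasts, the difference was 0.32. In mean log2 CPM it was 0.02 within the first technical set and 1.19 within the second. Postn (−0.23, SE 0.31), Thbs2 (−0.04, SE 0.31), Fn1 (−0.35, SE 0.48), Sparc (−0.44, SE 0.35), Ccn1 (−0.53, SE 0.37), Thbs1 (−0.54, SE 0.28) and Ccn2 (−0.71, SE 0.34) had estimates below 0, with adjusted p from 0.919 to 0.991. In mean log2 CPM, Thbs2 (−0.42 and 0.39), Sparc (−0.36 and 0.14) and Ccn1 (−0.45 and 0.22) changed sign between the first and second technical sets. Fibroblast stress gene sums, 2577 to 12044 CPM, were highest in control 3, which was also the highest fibroblast library for Sparc, Fn1, Thbs1, Ccn1 and Ccn2, and their part in these values was not tested.

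In pericytes 3 irradiated and 3 control tumors entered, and estimates ran from −0.22 (Postn, SE 0.28) to 0.48 (Ccn2, SE 0.69). Fn1 was at −0.18 (SE 0.26), Tnc at −0.01 (SE 0.53), Sparc at 0.04 (SE 0.27), Thbs1 at 0.04 (SE 0.81), Thbs2 at 0.05 (SE 0.34) and Ccn1 at 0.41 (SE 0.43), all with an edgeR adjusted p of 0.9996. Within the first and second technical sets the differences of mean log2 CPM were −0.95 and 1.36 for Ccn2, −0.70 and 0.71 for Ccn1, 0.89 and −0.46 for Tnc and −1.89 and 0.0435 for Thbs1, so that these 4 changed sign between sets. Sparc (−0.15 and 0.0786) and Fn1 (−0.27 and 0.20) changed sign as well. Thbs1 was at −0.90 with the technical set as a term and −3.12 under stricter gates (adjusted p = 0.00826), where only irradiated 1 and 2 controls were left.

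In endothelial cells, the lining cells of blood vessels, Thbs1 had the smallest unadjusted p of any of the 39 tests on these genes. It was at 209.7, 280.2, 415 and 329.7 CPM in irradiated tumors and 225, 120.4 and 130.0 CPM in controls. Of the 4 irradiated values, 3 lay above all controls, and irradiated 1 lay just below control 1, so that the groups overlapped. The difference was 0.96 (SE 0.27, edgeR adjusted p = 0.905). In mean log2 CPM it was 0.73 within the first technical set and 0.58 within the second. With every gene that had a UMI tested, it passed at an adjusted p of 0.0237, in a fit that called 55 genes in endothelial cells. With cells above the 95th percentile of UMIs removed it was 0.42 (adjusted p = 0.999). Fn1 (0.82, SE 0.67), Tnc (0.73, SE 0.47), Ccn2 (0.58, SE 0.49) and Sparc (0.20, SE 0.17) were also estimated above 0, and Ccn1 (−0.04, SE 0.22) and Postn (−0.90, SE 0.60) below it, with adjusted p of 0.9999. With cells taken by cluster, Tnc was at −1.02 and Fn1 at 0.0822. In mean log2 CPM, Postn was at 0.36 within the first technical set and −1.92 within the second, Ccn1 at 0.55 and −0.55, and Ccn2 at 0.72 and −0.20.

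In macrophages, Fn1 was at 473, 232, 645 and 578 CPM in irradiated tumors and 686, 957.5 and 972 CPM in controls, so that each irradiated tumor lay below each control. Among the 8 genes, the groups did not overlap for Fn1 and Ccn1 in macrophages, against 5.24% of the 12643 genes tested there. They overlapped for all 8 in tumor cells, fibroblasts, pericytes and endothelial cells, where 2.21%, 4.72%, 8.13% and 4.47% of genes did not overlap. The difference was −0.89 (SE 0.32, edgeR adjusted p = 0.832), and in mean log2 CPM it was −1.03 within the first technical set and −0.63 within the second. It was −0.66 without irradiated 2, the lowest library, and from −1.04 to −0.80 without any other. Fn1 in T and NK cells was far lower but split the same way. Its level there was 15.5, 7.08, 12.7 and 0 CPM in irradiated tumors and 20.5, 24.3 and 23.1 CPM in controls. Ccn1 and Ccn2 did not overlap in T and NK cells either, with Ccn2 at means of 0.288 and 3.48 CPM in irradiated and control tumors. The share of all genes that did not overlap in T and NK cells was not counted. The part of free RNA in the macrophage values was not tested. Thbs1 in macrophages did not follow, with a difference of −0.04 (SE 0.20, adjusted p = 0.970) and values that interleaved.

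The other 6 genes were also estimated lower in macrophages of irradiated tumors, by −1.25 for Ccn1 (SE 0.54), −1.08 for Tnc (SE 0.47), −1.01 for Postn (SE 0.39), −0.90 for Sparc (SE 0.42), −0.88 for Ccn2 (SE 0.59) and −0.86 for Thbs2 (SE 0.51), each at an edgeR adjusted p of 0.832. Macrophages did not exceed T and NK cells detectably for any of these 6 genes. Within the first technical set the differences of mean log2 CPM were 0.0726 for Postn, 0.19 for Tnc, 0.35 for Sparc, 0.59 for Thbs2, −0.14 for Ccn2 and −0.88 for Ccn1, and within the second −1.95, −2.13, −1.88, −1.93, −1.79 and −1.32. So 4 of the 6 were above 0 in the first set, and all 6 were below 0 in the second, which holds control 1. Postn in macrophages was 14.0, 9.22, 11.2 and 8.20 CPM in irradiated tumors and 37.0, 13.2 and 13.5 CPM in controls, and in T and NK cells it was 14.0, 14.2, 9.22 and 7.99 CPM against 42.3, 4.41 and 25.1 CPM. Control 1 was the highest library in both classes, and it also had the highest sum of tumor markers in both (102 CPM in macrophages and 136 CPM in T and NK cells). Ccn1 was at 4.12, 4.82, 3.81 and 0.761 CPM in macrophages of irradiated tumors and 6.39, 5.10 and 11.6 CPM in those of controls, below the T and NK cell level of the same tumor throughout, and in T and NK cells its groups did not overlap either, with irradiated tumors at or below 14.2 CPM and controls up to 27.0 CPM. Without control 1 the Postn difference in macrophages was −0.37, Tnc −0.34, Sparc −0.51, Thbs2 −0.46 and Ccn2 −0.04, whereas Ccn1 was at −1.38. The part of free RNA in these differences was not tested.

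**Figure D5:**
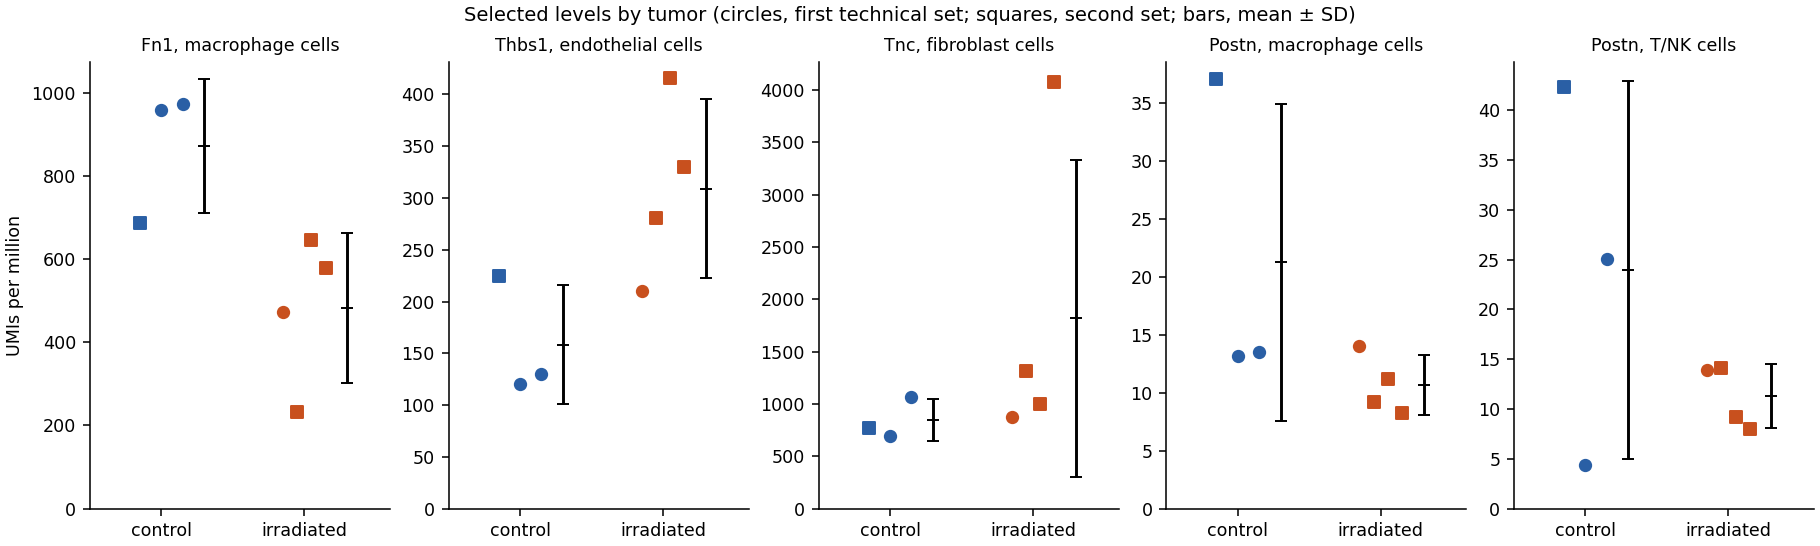
Levels (CPM, linear axes from 0) by tumor of Fn1 in macrophages, Thbs1 in endothelial cells, Tnc in fibroblasts, and Postn in macrophages and T/NK cells; circles are tumors of the first technical set, squares those of the second, and bars the mean ± SD. Fn1 in macrophages does not overlap between groups, the Tnc mean in irradiated tumors is carried by irradiated 4 at 4076 CPM, and Postn is highest in control 1 in both macrophages and T/NK cells.

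Of the 32 tests of a difference between a host class and tumor cells in the RT effect, 3 had an unadjusted p under 0.05: Thbs1 in endothelial cells (1.34, SE 0.57), Thbs2 in macrophages (−1.01, SE 0.46) and Postn in macrophages (−0.90, SE 0.42). All had an edgeR adjusted p of 1.

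Related genes were read from lists of other matricellular proteins, receptors and clearance receptors, matrix crosslinking and assembly, YAP/TAZ targets, TGF-β early targets, and immediate early and dissociation stress genes. Over all genes, 27.3% were higher and 30.8% lower in fibroblasts than in tumor cells, or 58.2% in either direction, against which the fibroblast counts are read. Of the other matricellular genes, 8 of the 13 tested were higher in fibroblasts than in tumor cells and 2 lower (list median 1.12). The largest were Ccn5 (9.43), Thbs4 (9.38), Ccn3 (7.34), Smoc2 (7.00) and Comp (5.47). Thbs4, a thrombospondin of tendon and muscle matrix, reached a median of 3490 CPM in fibroblasts against 3.82 CPM in tumor cells. Macrophages were lower than tumor cells for 12 of the 13, against 45.4% of all genes, and the 1 that was higher, named after its value was seen, was Tgfbi (3.28), a secreted integrin ligand.

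The receptors were divided between classes. In macrophages 9 of 14 were higher than in tumor cells and 4 lower, against 36.6% and 45.4% of all genes, led by the scavenger receptor Stab1 (7.53), Itgb8 (−7.14), the thrombospondin receptor Cd36 (6.96), Itga4 (5.54) and Itga9 (4.67), an integrin chain that binds tenascin-C. Stab1, which clears SPARC in macrophages, was at a median of 301 CPM in macrophages, 94.7 CPM in endothelial cells and 1.72 CPM in tumor cells. Cd36 was at 288 CPM in endothelial cells, 12.3 CPM in macrophages and 0.120 CPM in tumor cells. In fibroblasts 5 receptors were higher than in tumor cells and 4 lower, led by Itga9 (3.55), Itga8 (−3.51), Itgb8 (−1.99), Lrp1 (1.86) and Itgb3 (0.95). Of the 10 crosslinking genes tested, 6 were higher and 1 lower in fibroblasts, led by Lox (2.20), Loxl2 (1.89), Bmp1 (1.62), Loxl1 (1.29) and Plod2 (1.18). Of the 18 YAP/TAZ targets tested, 5 were higher and 6 lower in fibroblasts, shares near those of all genes, led by Ankrd1 (−4.96), Igfbp3 (3.28), Ccdc80 (2.53), Rbms3 (2.08) and Gadd45a (1.78). TGF-β early targets were higher for 7 of 9 and lower for 1, among them Tagln (3.45), Pmepa1 (2.69), Bhlhe40 (1.62) and Ski (0.70). Of the 20 stress genes, 5 were higher and 1 lower in fibroblasts than in tumor cells.

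No gene of these lists passed the edgeR test between irradiated and control tumors in any class. The 2 largest changes of each list, or those of them reported here, in the order of lists given above, were Smoc2 (−1.31) and Tnxb (−0.85), Itga4 (−0.52) and Itga8 (0.24), Tgm2 (0.37) and Loxl3 (0.27), Igfbp3 (−0.79) and Nt5e (−0.59), Tagln (0.28) and Ltbp2 (0.25), and Btg2 (−0.97) and Dusp1 (−0.73) in tumor cells. In fibroblasts they were Tnxb (1.10) and Spp1 (0.97), Itga5 (0.79) and Itga9 (0.65), Loxl2 (0.90) and Loxl3 (0.54), Tgfb2 (−1.24) and Crim1 (−0.75), Tagln (−2.32) and Smad7 (0.45), and Zfp36 (−1.58) and Dusp1 (−1.27). Pericytes had Tnxb (1.27) and Spp1 (−0.80), Itga4 (−1.25) and Cd36 (1.16), Plod1 (−1.09) and Bmp1 (0.63), Crim1 (0.63) and Tgfb2 (−0.61), Pmepa1 (0.45) and Smad7 (0.36), and Klf4 (−0.77) and Ier3 (0.50). Endothelial cells had Spp1 (−1.80) and Tgfbi (0.21), Cd36 (1.11) and Itgb3 (0.64), Bmp1 (−0.19) and Serpinh1 (0.13), Nt5e (0.88) and Gadd45a (0.81), for the TGF-β early targets Tagln (−0.87), and Fosb (−1.16) and Nr4a1 (−1.09). Macrophages had Spp1 (−1.24) and Thbs4 (−0.77), Itgb3 (−0.81) and Itgav (−0.26), Plod2 (−1.62) and Serpinh1 (−1.14), F3 (−1.15) and Amotl2 (−0.94), Ltbp2 (−0.75) and Pmepa1 (−0.34), and Klf4 (−0.61) and Klf2 (−0.49). The stress genes were below 0 for 20 of 20 in tumor cells (median −0.48), and with the technical set as a term 8 of 20 were above 0 (median −0.02).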

How the data were processed

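Single-cell UMI counts were deposited as filtered gene by cell matrices, 1 per tumor. The authors' counting program, given in the matrix headers, was Cell Ranger 8.0.0. The submitters' processing notes name mm10 and Seurat 4.4. Tumors were dissociated with papain, and replicates were not pooled. Doublets were treated only by the gates' limits on markers of other classes and by an alternative without cells above the 95th UMI percentile of their class and library.

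A cell was dropped when its UMIs, genes, mitochondrial or ribosomal share lay over 3 median absolute deviations from its library's median (5237 of 39537). Gates required at least 4 of 12 markers for tumor cells, fibroblasts and endothelial cells, 5 for pericytes and T and NK cells and 6 for macrophages, with limits on other classes' markers. Tumor cells had no Xist UMI and fibroblasts at least 1, since the line is male and the hosts female. These minima were set after marker detection was seen, without reference to the 8 genes. The 8 genes, gene lists and markers were chosen with earlier results of these data known.

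For each tumor with at least 20 cells of a class, the class's counts were added up and tested with edgeR 4.0.16 (filterByExpr, TMM, robust quasi-likelihood fit) under R 4.3.3, with Benjamini-Hochberg adjustment over all genes tested. Irradiated and control tumors were compared in 1 fit per class. Classes, and the difference between classes in the RT effect, were compared in 1 fit with the tumor as a block. T and NK cells were compared by exact sign-flip tests of log2 values with 2 counts added (two-sided). The named genes were the 8, for each list up to 5 genes past an adjusted p of 0.05 by size of change and otherwise the 2 largest changes, and the 3 genes most correlated with each of the 8. A gene that this rule names is not reported here. Clusters (scanpy 1.11.5, Leiden, resolution 1, 3000 variable genes, 30 components, 20 neighbors) left out the 8 genes and the lists. Alternatives were Leiden clusters, stricter gates, no cell filter, removal of high-UMI cells, DESeq2 1.42.0, no filter on low genes, a term for technical set, a block for replicate number and leaving out each tumor. Scripts were tested on simulated data. The p-values for RT within a class measure the spread between tumors of 1 cell line. Those of the class, interaction and sign-flip tests measure how differences between classes of the same tumor vary across these tumors.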

Additional observations from a re-analysis of the deposited data

Results flagged for a closer look

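In 4 of the 32 groups of irradiated tumors examined, 1 tumor stood far from the other 3 by Dixon's criterion, which chance meets in about 1 group in 20. Sparc in tumor cells was 1335 CPM in irradiated 4 against 2236 to 2337 CPM in the other irradiated tumors. In fibroblasts of the same tumor, of which there were 25, Tnc was 4076 CPM against 874 to 1318 CPM and Thbs2 was 623 CPM against 353 to 390.5 CPM. Tnc in tumor cells was 611 CPM in irradiated 1 against 668 to 677 CPM in the others.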

How the results depend on the processing

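Under the alternatives, 533 refits of an RT value kept the sign and the side of the threshold, 48 changed sign and 1 newly passed the threshold with the sign kept (Thbs1 in endothelial cells with every gene tested). Among the sign changes, Thbs1 in pericytes under stricter gates also passed it (−3.12, adjusted p = 0.00826). Among refits of a class difference, 544 did so, 34 changed sign, 9 lost the call and 1 gained it with the sign kept (Thbs2 between macrophages and endothelial cells with Leiden clusters, −1.96, adjusted p = 6.64e-05). Postn between the same classes gained it with a change of sign.

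With DESeq2, 2 genes in endothelial cells and 5 in macrophages were called, and sign changed for Ccn2 between endothelial cells and pericytes (0.0656), Fn1 between macrophages and tumor cells (0.0212), Postn between pericytes and tumor cells (0.0101), Thbs1 between macrophages and fibroblasts (−0.0490) and Tnc under RT in pericytes (0.0013). With Leiden clusters the RT values that changed sign were Ccn1 in endothelial cells (0.0236), Postn in tumor cells (0.0667), Thbs1 in macrophages (0.0724), Thbs2 in fibroblasts (0.20) and Tnc in endothelial cells (−1.02), and between classes Ccn1 from pericytes to tumor cells (−0.0835) and Postn from macrophages to endothelial cells (−3.35, adjusted p = 2.5e-07). With every gene tested, RT calls were 55 genes in endothelial cells, 1 of the 8 among them, 24 in fibroblasts and 3 in pericytes, and 15879 genes rather than 8641 differed between macrophages and tumor cells. Sign then changed for Ccn1 from fibroblasts (−0.0296) and pericytes (−0.19) to tumor cells, Ccn2 between endothelial cells and pericytes (0.0333), Fn1 between macrophages and tumor cells (0.12) and Thbs2 between macrophages and endothelial cells (0.0551). With no cell filter, Postn changed sign under RT in endothelial cells (0.20) and between macrophages and endothelial cells (−0.34).

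Stricter gates lost 2 fibroblast, 1 endothelial and several pericyte libraries. They called 2 of the 8 genes between endothelial cells and pericytes, 3 between pericytes and fibroblasts and 1 under RT in pericytes, with 11 genes called there and 2542 rather than 4289 between pericytes and fibroblasts. Sign changed under RT in pericytes for Ccn1 (−0.94), Ccn2 (−1.17), Thbs1 (−3.12), Thbs2 (−0.12) and Tnc (0.13), and for Postn in tumor cells (0.0129) and Thbs2 in fibroblasts (0.0464). It also changed for Ccn1 from pericytes to tumor cells (−0.77), Fn1 from macrophages to tumor cells (0.0233), Sparc from endothelial cells to pericytes (0.13) and Thbs2 from macrophages to endothelial cells (0.10). The technical term changed sign in pericytes for Ccn1 (−0.0470), Sparc (−0.0409) and Thbs1 (−0.90), and removal of high-UMI cells for Ccn1 in endothelial cells (0.16) and Thbs1 in pericytes (−0.25). Except for fewer libraries or genes entering a fit, the cause was not tested.

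Replicate numbers did not pair the tumors: deviations of same-numbered tumors correlated at −0.43 to 0.12. The replicate block over irradiated 1 to 3 and controls 1 to 3 called none of the 8 genes and changed sign for Postn (0.0738) and Sparc (0.0204) in tumor cells and Thbs1 (−0.0797) and Tnc (0.21) in pericytes.

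Leaving out 1 tumor in turn gave 0 to 2 RT calls in fibroblasts, 0 to 1 in pericytes, and 0 to 2 and 0 to 1 for the difference of fibroblasts and of endothelial cells from tumor cells in the RT effect. RT values crossed 0 for Ccn1 (−0.89 to 0.17), Ccn2 (−0.32 to 0.0205), Postn (−0.11 to 0.0749) and Sparc (−0.28 to 0.0203) in tumor cells, Fn1 (−0.76 to 0.13) and Thbs2 (−0.26 to 0.19) in fibroblasts, Ccn1 in endothelial cells (−0.20 to 0.19) and Thbs1 in macrophages (−0.22 to 0.0894). In pericytes they did for Ccn2 (−0.33 to 1.32), Sparc (−0.22 to 0.15), Thbs1 (−0.55 to 0.57), Thbs2 (−0.20 to 0.21) and Tnc (−0.44 to 0.36). Class differences crossed 0 for Ccn1 from fibroblasts to tumor cells (−0.0262 to 0.35), pericytes to fibroblasts (−0.44 to 0.0458) and pericytes to tumor cells (−0.29 to 0.18), Ccn2 (−0.20 to 0.25) and Thbs1 (−0.0179 to 0.36) from endothelial cells to pericytes, Fn1 from macrophages to tumor cells (−0.0922 to 0.24), Postn from pericytes to tumor cells (−0.12 to 0.0170), Thbs1 from macrophages to fibroblasts (−0.0196 to 0.11) and Thbs2 from macrophages to endothelial cells (−0.60 to 0.0693). Fibroblasts, pericytes and endothelial cells had the fewest cells of the classes compared, and how far depth limits their values was not tested.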

Other observations

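Cells outside the 5 classes also held some of these transcripts, given here as sums over all tumors with no test. A granulocyte-like cluster of 51 cells, led by S100a9 and S100a8, had 1381 CPM of Thbs1, above the 513 CPM median of the Slfn4 macrophage cluster, and 17.7 CPM of Postn. An unnamed cluster of 193 cells led by Krt19 and Prlr had 2636 CPM of Postn and 1693 CPM of Tnc. Among the 4 tumors with at least 20 cells of it, its Postn level was 143 CPM in irradiated 2 and 21.6 CPM in irradiated 4, against 2223 CPM in control 2 and 4632 CPM in control 3. These irradiated tumors were both of the second technical set and these controls both of the first, so RT and set cannot be told apart here. Xist was detected in 52.3% of the cluster's cells, and which of its cells carried Postn was not tested.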
